A study of Saccharomyces cerevisiae with 8 samples.

Results

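Start peaks lying far upstream of yeast genes, more than 300 and up to 1000 bp before a start codon, are described here in Saccharomyces cerevisiae cultures in which capped RNA 5′ ends were mapped by CAGE-seq. A peak was a member if its 5′ end lay at that distance upstream of an annotated start codon on the same strand, outside every annotated gene, with no further gene on that strand in between. Overlapping member peaks of the 8 libraries were merged. This gave 706 member peaks in 345 regions at 332 genes, among 24914 peaks in 6963 regions over the nuclear chromosomes. Peaks 1 to 300 bp upstream under the same rules are called proximal, and numbered 17861 in 3654 regions. A further 1092 intergenic peaks in 581 regions were neither distal nor proximal. CAGE gives the 5′ end of an RNA only, so whether an RNA that began at a distal start reached the start codon was not measured, and the leader lengths given below are the lengths implied by that assumption.

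All strains derived from BY4741, a laboratory strain of genotype his3Δ1 leu2Δ0 met15Δ0 ura3Δ0. The 4 groups were HPRT1R episome, HPRT1 episome, HPRT1R integrated and HPRT1 integrated, with 2 replicate libraries each. HPRT1 is a human locus, and HPRT1R is its sequence read backwards without complementing it. Episome strains kept the locus on a separate artificial chromosome carrying LEU2 and were grown in medium lacking leucine (SC-Leu), whereas integrated strains carried it within chromosome XI and were grown in rich medium (YPD). All cultures were grown at 30 °C to mid-log phase. The effect of medium and that of genomic context cannot be told apart. Replicates came from separate colonies of 1 strain per group, per the study's methods, so p-values measure the spread between such colonies and the error of library preparation. Libraries held 6.48 M to 8.85 M aligned reads (M, mega), as recovered from the background level in the peak lists. Of the marker genes, a LEU2 start peak was called in all 4 episome libraries and in no integrated library, and none was called at MET17 or URA3 in any library. A HIS3 start peak was called in 4 episome and 2 integrated libraries.

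Most yeast genes have short leaders, the stretch of mRNA before the start codon. A start site farther upstream can give a long leader whose upstream start codons are read by ribosomes first, as in GCN4, or an RNA that is not used as messenger and whose passage over the nearer promoter can repress it, as is known at SER3 and NDC80. Yeast RNA polymerase II scans for its start site and favours a purine preceded by a pyrimidine.

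The sequences at the 5′ ends are shown first because they are what the distal starts share most clearly with ordinary starts. Below are the 9 regions that stood apart from any proximal peak and were called in 7 or 8 libraries, with that of GCN4, a transcription factor whose long leader is textbook knowledge. These were chosen after their values were seen. Each gives 30 bases before the 5′ end that the most libraries shared, which is 6 at SOM1 and 1 at FHN1, and 10 bases from it on, read 5′ to 3′ on the strand of the gene from the R64 genome (RefSeq), which is the sacCer3 build of the peak lists. Capitals mark the outermost base of the peak and the base after it.
YOR376W-A, chrXV:1044526-1044565, plus strand: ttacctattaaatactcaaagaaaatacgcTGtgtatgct
SPO73, chrV:242475-242514, plus strand: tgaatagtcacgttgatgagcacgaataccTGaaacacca
YDL012C, chrIV:431996-432035, minus strand: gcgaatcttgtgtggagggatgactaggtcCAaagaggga
TOS3, chrVII:165950-165989, minus strand: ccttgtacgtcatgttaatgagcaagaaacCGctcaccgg
SOM1, chrV:43061-43100, minus strand: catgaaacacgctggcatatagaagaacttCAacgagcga
PHM7, chrXV:161426-161465, plus strand: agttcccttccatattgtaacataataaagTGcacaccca
RRT13, chrV:289571-289610, plus strand: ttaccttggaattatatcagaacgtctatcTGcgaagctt
YPL034W, chrXVI:486347-486386, plus strand: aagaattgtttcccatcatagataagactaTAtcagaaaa
FHN1, chrVII:754133-754172, plus strand: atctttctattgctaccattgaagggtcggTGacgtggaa
GCN4, chrV:140327-140366, minus strand: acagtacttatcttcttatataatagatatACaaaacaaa

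In the 9 regions above GCN4 the capitals are a pyrimidine followed by a purine. At GCN4 the edge was shared by 2 libraries and lacked the pair, and the other 2 libraries placed it 1 base farther upstream, on a TA pair. Over the 8 libraries, 78.3% ± 5.09 (SD, n = 8) of distal peaks began on a pyrimidine-purine pair, with a range of 70.4% to 84.3%. Of all strand-specific bases in the distal zone, 23.6% are followed in this way. The excess averaged 54.7 percentage points and was present in 8 of 8 libraries (exact two-sided permutation of signs, p = 0.00781, the smallest that 8 libraries allow, adjusted p = 0.0156 over 6 tests chosen after the data were seen). Proximal peaks had the pair in 75.4% ± 1.02 (SD, n = 8) of cases. The difference of distal from proximal peaks, 2.83 percentage points, was not larger than its spread between libraries (exact permutation p = 0.172). Other intergenic peaks had it in 76.4% ± 3.27 (SD, n = 8). The pair lay on the edge base and the next base, and 5.95% of distal peaks had it 1 base earlier. The cause of this offset of 1 base was not tested.

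**Figure D1:**
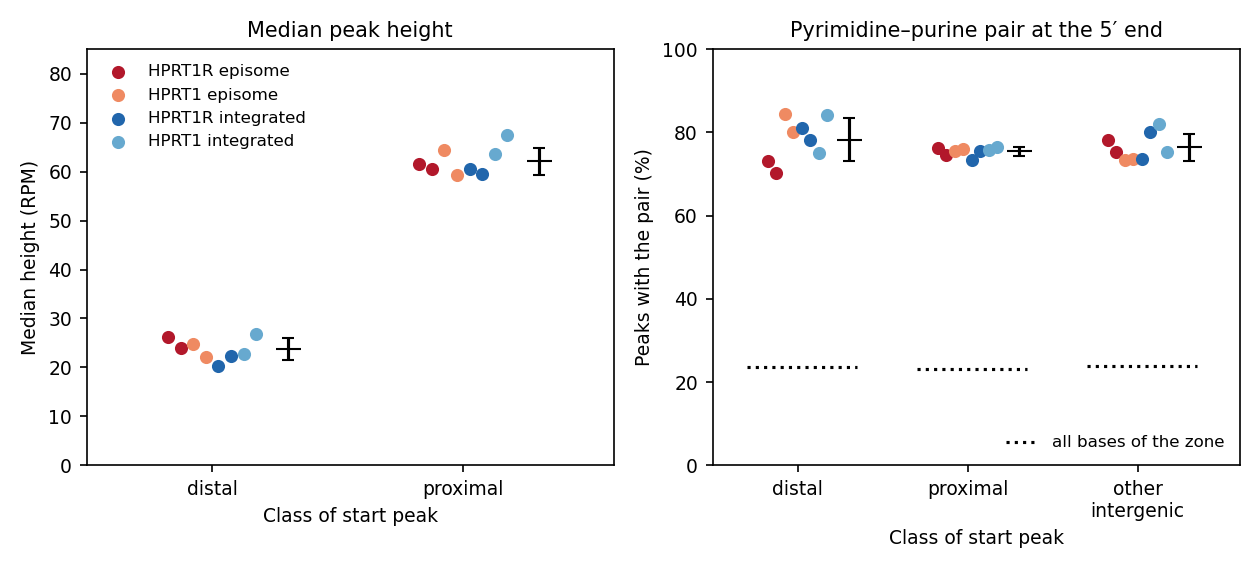
The left panel plots the median peak height of each library in RPM (reads at the summit, scaled by library size) for distal and proximal peaks, and the right panel the percent of peaks whose 5′ end lies on a pyrimidine-purine pair for distal, proximal and other intergenic peaks. Points are the 8 libraries, coloured by group, bars are mean ± SD, and dotted lines give the percent of all bases in each zone, which is 23.6% in the distal zone. Distal medians lie between 20.2 and 26.9 RPM, below all proximal medians, while the shares with the pair overlap.

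The pair was common at every level of recurrence. Of the 189 regions called in 1 library, 76.7% of peaks began on it. The shares for regions in 4, 5, 6 and 7 libraries were 77.8%, 70.8%, 77.3% and 87.3%, and it was at all 16 peaks of the 2 regions called in 8 libraries (100%). TG was the most frequent pair at distal starts, with 25.1% of 706 peaks, followed by CA with 21.4%. Other intergenic starts had the same leading pairs, with 24.8% TG and 22.3% CA. At proximal starts CA led with 25.3%, followed by TA with 20.8% and TG with 18.5%. These shares are pooled over libraries and carry no test.

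Distal peaks were lower than proximal ones and near other intergenic peaks. Height is the number of reads stacked at the summit, scaled by the aligned reads of the library (RPM). The median distal peak had 23.7 ± 2.24 RPM and the median proximal peak 62.1 ± 2.79 RPM (SD, n = 8 libraries each), a ratio of 0.380 (log2 ratio −1.40, lower in 8 of 8 libraries, exact two-sided permutation of signs p = 0.00781, adjusted p = 0.0195 over 5 tests). Set against other intergenic peaks, the median distal height was 1.09 times as high (log2 ratio 0.12, exact permutation p = 0.00781, adjusted p = 0.0156 over the 6 added tests). The median fold over local background was 2.86 ± 0.180 for distal, 6.97 ± 0.292 for proximal and 2.72 ± 0.302 for other intergenic peaks (SD, n = 8 libraries each). Of distal peaks, 68.9% ± 4.20 were as narrow as the peak caller permits, 200 bp, against 30.7% ± 3.12 of proximal peaks (SD, n = 8 libraries each; exact permutation p = 0.00781). Of other intergenic peaks 74.3% ± 2.67 and of peaks within genes 73.0% ± 1.53 were that narrow (SD, n = 8). Distal heights lay close to the lowest values called, which were 8.48 to 9.65 RPM on the forward and 13.7 to 14.6 RPM on the reverse strand. Forward-strand peaks made up 61.0% of distal peaks, and 54.6% once both strands were held to 14.6 RPM. Of proximal peaks of any height, 53.9% were on the forward strand. Sites with fewer reads are not in the lists, so a distal start that was not called in a library is not shown to be absent there. Some libraries without a distal call had another same-strand peak that overlapped the region. At MPC2 a distal peak was called in 5 libraries and a peak of any class in 8, and at IES6 in 6 and 8.

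The density of starts was highest near the start codon and did not fall in every bin of the distal window. Per kb of eligible sequence, meaning bases on a strand that meet the rules at that distance, a library had on average 3.17 peaks at 1 to 100 bp, 0.563 at 100 to 200 bp and 0.147 at 200 to 300 bp. Within the distal window it had 0.0816 ± 0.0146 at 300 to 400 bp, 0.0674 ± 0.0125 at 400 to 500 bp, 0.0584 ± 0.0147 at 500 to 600 bp and 0.0600 ± 0.0136 at 600 to 700 bp (SD, n = 8), where each bin includes its upper limit only. At 700 to 800 bp it had 0.0404 ± 0.0105, at 800 to 900 bp 0.0477 ± 0.0158 and at 900 to 1000 bp 0.0374 ± 0.0141 (SD, n = 8), each within its own SD of the 0.0409 ± 0.00425 of other intergenic sequence. Over the whole window the density was 0.0620 ± 0.00444 per kb and in other intergenic sequence 0.0409 ± 0.00425 per kb (SD, n = 8). The distal zone was denser by 1.52 times (log2 ratio 0.61, in 8 of 8 libraries, exact two-sided permutation of signs p = 0.00781, adjusted p = 0.0195). Without the regions that overlapped a proximal peak the log2 ratio was 0.25 (exact permutation p = 0.0312).

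**Figure D2:**
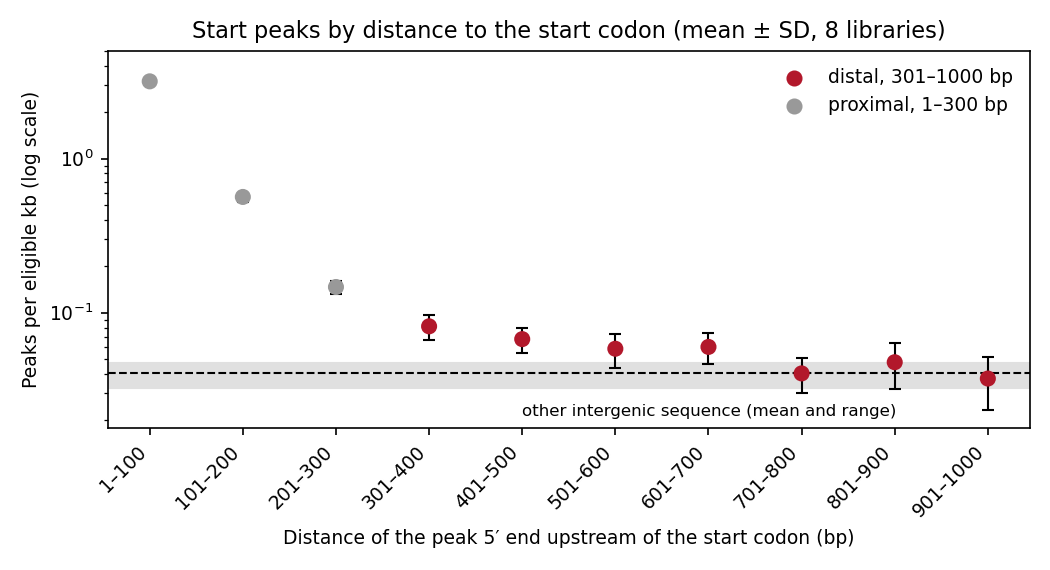
Peaks per kb of eligible sequence, on a log scale, against the distance of the peak 5′ end upstream of the start codon in bins of 100 bp. Points are means over 8 libraries with their SD, proximal bins in grey and distal bins in red, and the dashed line with its band gives the mean and range of other intergenic sequence. The density is 0.0816 per kb in the first distal bin, and each of the 3 bins beyond 700 bp lies within its own SD of the mean of other intergenic sequence.

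Of the 345 regions, 116 had a median distance of 300 to 400 bp, 67 of 400 to 500 bp and 51 of 500 to 600 bp. The median over regions was 488 bp. In the 10 bp inside the lower limit, 18 peaks had a median of 30.3 RPM, and in the 10 bp outside it 31 peaks had 24.6 RPM. At the upper limit there was 1 peak in the 10 bp inside, before TOS3 with 97.5 RPM, and 1 in the 10 bp outside, before POG1 with 18.0 RPM. No region called in all 8 libraries lay within 10 bp of either limit.

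Most distal starts were called in few libraries. Of the 345 regions, 189 (54.8%) were called in 1 library, 53 (15.4%) in 4 or more and 2 (0.580%) in all 8. Of proximal regions, 17.0% were called in 1 library, 62.9% in 4 or more and 29.7% in all 8. Of other intergenic regions, 63.7% were called in 1 library and 13.8% in 4 or more. A distal peak overlapped a same-strand peak in the other replicate of its group in 42.5% ± 7.20 of cases and a proximal peak in 79.0% ± 1.61 (SD, n = 8 libraries). The peak overlapped could be of any class, so unlike the region counts above, this share does not require a second distal call. With replicates paired, the difference was −36.5 percentage points in 4 group pairs, where an exact permutation of signs cannot go below its p of 0.125. Other intergenic peaks had such an overlap in 35.8% ± 3.97 of cases (SD, n = 8 libraries), and the distal share was not shown to differ from it (6.70 percentage points, exact permutation p = 0.25 over 4 group pairs). The overlap moved with height. It was found for 21.5% of distal peaks under 20 RPM and 90.9% of those at 80 RPM or more. For proximal peaks in the same height ranges it was 46.0% and 97.3%. Median height was 17.7 RPM for regions in 1 library and 39.2 RPM for those in 7.

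Of the regions, 67 (19.4%) overlapped a proximal peak of some library on the same strand, and their median distance was 339.5 bp. Whether these were edges of broad proximal clusters was not tested. At HEM12 a distal peak was called in 7 libraries and a proximal peak in 1, with 19.7 RPM. At MPC2 the counts were 5 and 2, and at IES6 they were 6 and 3. The other 278 regions (80.6%) stood apart from proximal peaks, with a median distance of 536.5 bp. Among the 22 regions called in 6 or more libraries, 15 stood apart.

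**Figure D3:**
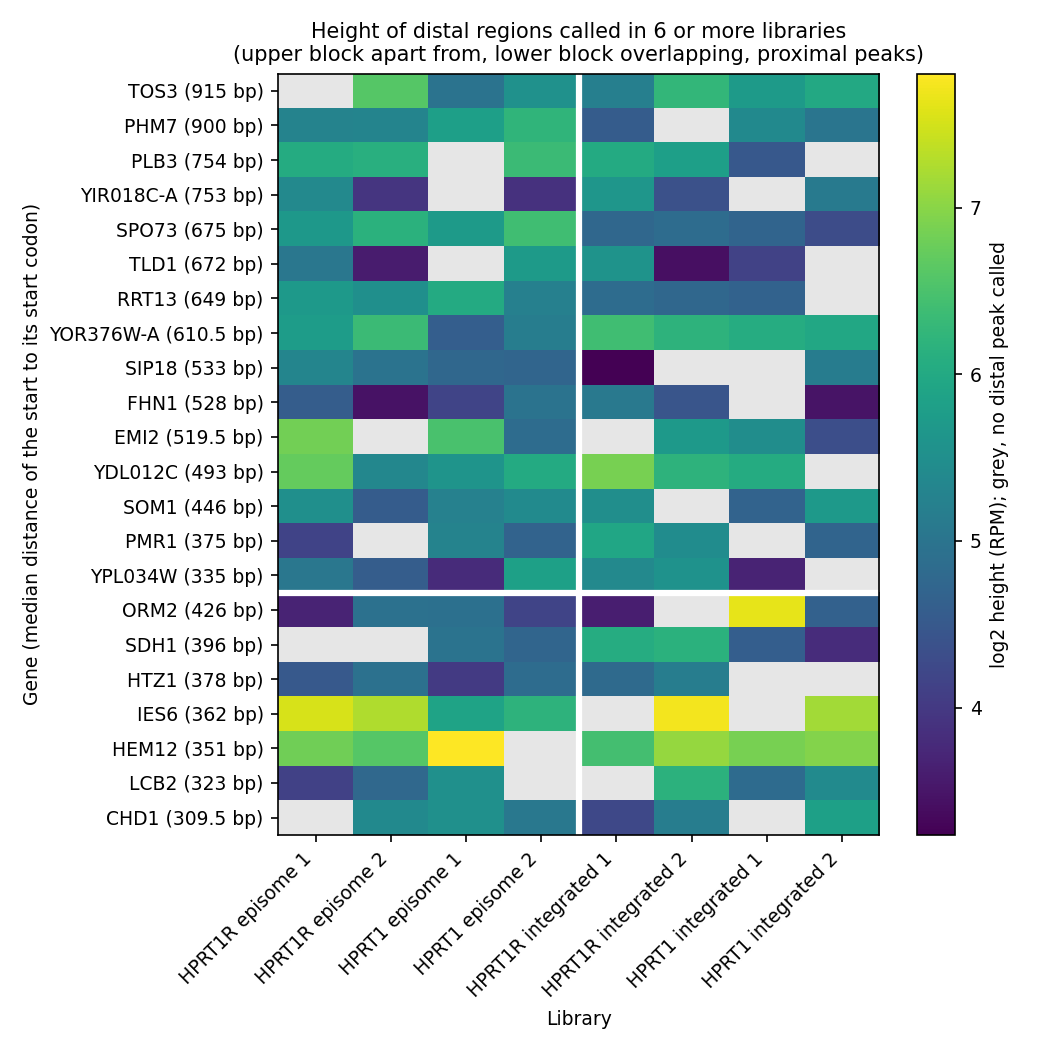
Height of the 22 distal regions called in 6 or more libraries, as log2 RPM by colour, with genes in rows and the 8 libraries in columns, episome left of integrated. Grey cells had no distal peak called, the upper 15 rows stood apart from proximal peaks and the lower 7 overlapped them. SPO73 has 51.1 to 84.8 RPM in the 4 episome and 19.6 to 29.0 RPM in the 4 integrated libraries, and the other rows that were called in all 8 or 7 libraries overlap between contexts, except RRT13.

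Only SPO73 and YOR376W-A had a distal peak in every library. SPO73, a gene required for spore wall formation in meiosis, had its distal start at chrV:242488-242735 on the plus strand, 661 to 692 bp upstream of the start codon. Its height was 51.1 and 71.1 RPM in HPRT1R episome and 53.1 and 84.8 RPM in HPRT1 episome libraries, against 27.1 and 29.0 RPM in HPRT1R integrated and 26.1 and 19.6 RPM in HPRT1 integrated libraries. All episome values lay above all integrated values. The fitted difference was 1.34 on the log2 scale (SE 0.26, 2.53-fold) and did not pass the threshold over all regions tested (limma, Benjamini-Hochberg adjusted p = 0.103). SPO73 had no proximal peak in any library.

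The distal start of YOR376W-A, an uncharacterised gene, was at chrXV:1044551-1045032 on the plus strand, 412 to 645 bp upstream. Its height was 54.3 and 81.3 RPM in HPRT1R episome and 24.2 and 35.9 RPM in HPRT1 episome libraries, against 85.1 and 73.2 RPM in HPRT1R integrated and 67.2 and 62.7 RPM in HPRT1 integrated libraries. The contexts overlapped, and the fitted difference was −0.69 on the log2 scale (SE 0.29, limma adjusted p = 0.323). YOR376W-A also lacked a proximal peak in every library.

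The next most recurrent regions were called in 7 libraries, and these and the others named below were chosen after their values were seen. SOM1, which encodes a subunit of the mitochondrial inner membrane peptidase, had the base shared by the most libraries. Its 5′ end lay at exactly 446 bp in 6 of the 7 libraries, and its height was 45.9 and 23.8 RPM in HPRT1R episome, 37.9 and 42.9 RPM in HPRT1 episome, 45.1 RPM in HPRT1R integrated replicate 1, and 25.7 and 51.6 RPM in HPRT1 integrated libraries. The 2 contexts overlapped. The span from this start to SOM1 contains HHY1, a gene annotated on the opposite strand. YPL034W, an uncharacterised gene, had its start at 335 bp in 5 of 7 libraries and within 337 bp in all 7. PHM7 had its start at 883 to 901 bp, with YOL085C on the opposite strand in between. TOS3, a kinase that activates Snf1, had the most distant of these starts, with a median of 915 bp and heights of 31.4 to 97.5 RPM.

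RRT13, an uncharacterised gene with a tRNA gene behind its start, had 51.3 and 45.5 RPM in HPRT1R episome and 65.0 and 37.5 RPM in HPRT1 episome libraries, against 28.9 and 27.0 RPM in HPRT1R integrated and 25.4 RPM in HPRT1 integrated replicate 1. All 4 episome values lay above the 3 integrated ones. Of the 1284 native regions with a peak in all 8 libraries, the contexts did not overlap in 11.4%. That share was not counted for regions called in 7 libraries. When regions with a peak in at least 6 libraries were fitted, 0 of the 61 with a distal peak differed between contexts (limma, Benjamini-Hochberg 0.05), against 7 of all 2038. FHN1, a relative of the membrane protein Nce102, had 24.1 and 11.0 RPM in HPRT1R episome and 18.0 and 31.6 RPM in HPRT1 episome libraries, against 33.9 and 21.7 RPM in HPRT1R integrated and 11.1 RPM in HPRT1 integrated replicate 2, and its contexts overlapped. Its 5′ ends were scattered from 459 to 563 bp, with a different base in each library. Histone H4 gene HHF2 had a distal region at a median of 536 bp in 5 libraries, of 38.9 to 125 RPM, beside a proximal peak in all 8.

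Over the 53 regions called in 4 or more libraries, the 5′ ends of a region spanned a median of 46 bp, and in 12 regions at most 10 bp. In 15 regions, 3 or more libraries shared the same base. The narrowest were SNQ2, called in 5 libraries, and GCN4, called in 4, each with a span of 1 bp.

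At 219 of 702 pairs of gene and library with a distal peak (31.2%), the same gene had a proximal peak in that library too. The distal peak was then lower in most cases, with a median ratio of distal to proximal height of 0.356, and it was higher in 33 of the 219. No gene had both starts called in all 8 libraries, so the planned test of their ratio had no gene to test. Of the 332 genes, 112 had no proximal peak in any library and 56 had one in all 8. Of all 6002 protein-coding genes, 3642 (60.7%) had a proximal peak, so lacking one was not particular to genes with a distal start.

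PLB3, which encodes a phospholipase B, had the higher distal peak wherever both were called. In the 6 libraries with both, the distal height was 66.5 and 69.6 RPM in HPRT1R episome, 82.1 RPM in HPRT1 episome replicate 2, 65.5 and 56.5 RPM in HPRT1R integrated and 22.6 RPM in HPRT1 integrated replicate 1. The proximal height in these was 19.7 and 12.3 RPM, 14.2 RPM, 20.1 and 34.9 RPM, and 13.7 RPM, in the same order. The distal height was the greater in each, with a mean log2 ratio of 1.65 and a range of 0.69 to 2.54. These ratios cover libraries with both calls only. HPRT1 integrated replicate 2 went the other way, with its highest proximal value, 49.4 RPM, and no distal call, and HPRT1 episome replicate 1 had neither. HTZ1, the gene for histone H2A.Z, lies next to PLB3 on the opposite strand and also had a distal region in 6 libraries, with its 5′ end at 378 bp in 4 of them.

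EMI2, annotated as a putative glucokinase, had the opposite balance. Its distal height was 113 RPM in HPRT1R episome replicate 1, 89.9 and 28.9 RPM in HPRT1 episome, 52.5 RPM in HPRT1R integrated replicate 2, and 44.6 and 20.0 RPM in HPRT1 integrated libraries. Its proximal height in the 8 libraries lay between 152 and 398 RPM. The log2 ratio of distal to proximal averaged −2.26 over 6 libraries. The uncharacterised gene YDL012C was near balance, with a mean log2 ratio of −0.37 over 7 libraries and a range of −1.37 to 0.40. When the ratio was fitted for the 4 genes with both starts in at least 6 libraries, which also included ORM2, none differed between episome and integrated libraries (limma, lowest adjusted p = 0.108, for EMI2, and 1 of 4 at an unadjusted p under 0.05). PHM7 had a proximal peak in all 4 episome libraries, of 17.7 to 35.0 RPM, and in no integrated library. Its distal start was called in 4 episome and 3 integrated libraries. The proximal heights were below the median proximal peak of 62.1 RPM, and a missing call does not show absence. Of all 6963 native regions, 10 were called in all 4 episome libraries and in no integrated library.

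Distal peaks made up 3.09% and 2.62% of native peaks in HPRT1R episome, 2.73% and 3.17% in HPRT1 episome, 2.82% and 2.85% in HPRT1R integrated and 2.61% and 2.79% in HPRT1 integrated libraries. Episome libraries averaged 2.90% ± 0.270 and integrated libraries 2.77% ± 0.109 (SD, n = 4 each), and the difference of 0.136 percentage points was smaller than the SD of the episome libraries (p = 0.40 by an exact two-sided permutation of library labels, which with 4 against 4 cannot go below 0.0286). Between loci the share averaged 2.85% ± 0.194 for HPRT1R and 2.82% ± 0.244 for HPRT1 (SD, n = 4 each; exact permutation p = 0.857).

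The distance of distal peaks from the start codon differed between contexts. The median distance was 488 and 473 bp in HPRT1R episome and 494 and 496 bp in HPRT1 episome, against 460.5 and 443.5 bp in HPRT1R integrated and 454.5 and 444 bp in HPRT1 integrated libraries. All episome medians lay above all integrated medians, by 37.1 bp on average (p = 0.0286 by the same exact permutation, adjusted p = 0.0476 over 5 tests). The difference had the other sign, −11.0 bp, once regions overlapping a proximal peak were left out (exact permutation p = 0.514), and was 18.4 bp with 1 minimum height for all libraries and strands (exact permutation p = 0.571).

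Heights were compared between contexts in the 1284 native regions with a peak in all 8 libraries. Of these, 26 contained a distal peak of at least 1 library, and in 2 of them, those of SPO73 and YOR376W-A, the distal peak was called in all 8. Across all 1284 regions, 7 (0.545%) differed between episome and integrated libraries, 6 of them higher in episome libraries, and none of the 26 did (limma, Benjamini-Hochberg 0.05, with 4 of the 26 and 189 of the 1284 at an unadjusted p under 0.05). None of the 1284 (0%) differed between HPRT1R and HPRT1 (limma, with 2 of the 26 and 56 of the 1284 at an unadjusted p under 0.05). The median difference of episome from integrated libraries was −0.01 on the log2 scale for the 26 and −0.14 for all regions. The heights of the contexts did not overlap in 2 of the 26, SPO73 and PET9, and in 11.4% of all 1284 regions. The PET9 region held a distal peak in 1 library only, so its heights are mostly those of other peaks.

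Of the 6963 native regions, 24 (0.345%) belonged to 1 context, with a call in all of its 4 libraries and no call elsewhere. Of those, 10 were episome regions and 14 integrated regions. Among the 345 that held a distal peak there were 3, all in episome libraries, and none in integrated libraries. SLM4, a subunit of the EGO complex, had 45.7 and 45.2 RPM in HPRT1R episome and 33.3 and 69.6 RPM in HPRT1 episome libraries, 425 to 556 bp upstream. YJL107C had 35.4 and 26.8 RPM in HPRT1R episome and 43.5 and 49.1 RPM in HPRT1 episome libraries, 671 to 677 bp upstream, and faces away from IME2, a kinase gene of meiosis. NCE103, the gene for carbonic anhydrase, had 13.3 and 9.57 RPM in HPRT1R episome and 25.0 and 33.8 RPM in HPRT1 episome libraries, 482 to 488 bp upstream. The lowest of the NCE103 heights was near the limit of calling on that strand. Proximal peaks were called at SLM4 in both HPRT1R integrated libraries, with 42.9 and 16.9 RPM, and at YJL107C in HPRT1R integrated replicate 1, with 35.0 RPM. At NCE103 they were called in 3 episome and 2 integrated libraries. By locus, 10 native regions (0.144%) were called for HPRT1R or HPRT1 only. The only one with a distal peak was that of TRM13, a tRNA methyltransferase gene, called in the 4 HPRT1 libraries, with distal peaks of 13.0 and 43.2 RPM in HPRT1 episome and 51.2 RPM in HPRT1 integrated replicate 2.

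The leaders implied by the 345 regions had a median of 487 nt and 7 ATG triplets, with 0 to 21. Those of proximal regions had a median of 51 nt and 0 triplets, and 85.8% of them had none. On the strand of the gene, distal leaders held 1.31 ATG per 100 nt, while the opposite strand of the same sequence held 1.73. From positions taken every 50 bases across the distal zone, the values were 1.46 and 1.77. The shortfall was mainly in the last 300 nt before the start codon, with 1.10 per 100 nt and 1.75 on the opposite strand. Farther upstream the values were 1.57 and 1.70. In 219 leaders the gene's strand had fewer ATG triplets than the opposite strand, and in 101 it had more. These counts describe the regions and carry no test.

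A group of 32 distal leaders (9.28%) had no upstream ATG, whereas the opposite strand lacked ATG in 0 of the 345. The zone positions lacked an ATG before the start codon in 2.22% of cases. Most of these leaders were short. At 300 to 400 bp, 24 of 115 leaders (20.9%) had none, against 5.22% of zone positions at that distance. At 400 to 500 bp it was 5 of 68 (7.35%), against 2.63%, and at 500 to 700 bp 3 of 94 (3.19%), against 1.09%. Among leaders at 300 to 400 bp, 10 of 57 that stood apart from proximal peaks lacked an ATG (17.5%), and 14 of 58 that overlapped them did (24.1%). The 8 genes of this kind called in 4 or more libraries were CHD1, a chromatin remodeller, LCB2, an enzyme of sphingolipid synthesis, PMR1, the Golgi calcium and manganese pump, SNQ2, a multidrug transporter, ALT1, alanine transaminase, and GIP2, LAF1 and SKG1. The leaders of PMR1 and GIP2 were the longest of the 8, with 435 nt each, while their opposite strands held 10 and 8 ATG triplets. These lengths rest on an edge found in 2 of 6 libraries at PMR1 and in 1 of 5 at GIP2. The 5′ ends lay at 356 to 436 bp at PMR1 and at 402 to 452 bp at GIP2. PMR1 had its distal start in 6 libraries, with 17.9 RPM in HPRT1R episome replicate 1, 38.7 and 25.7 RPM in HPRT1 episome, 61.1 and 43.9 RPM in HPRT1R integrated and 26.2 RPM in HPRT1 integrated replicate 2, and had no proximal peak in any library. GIS1, annotated as a histone demethylase, had a single ATG in the 649 nt from its farthest 5′ end, with 11 on the opposite strand. It was called in 4 libraries, with 5′ ends at 412 to 650 bp, and the farthest was found in 1 of them.

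**Figure D4:**
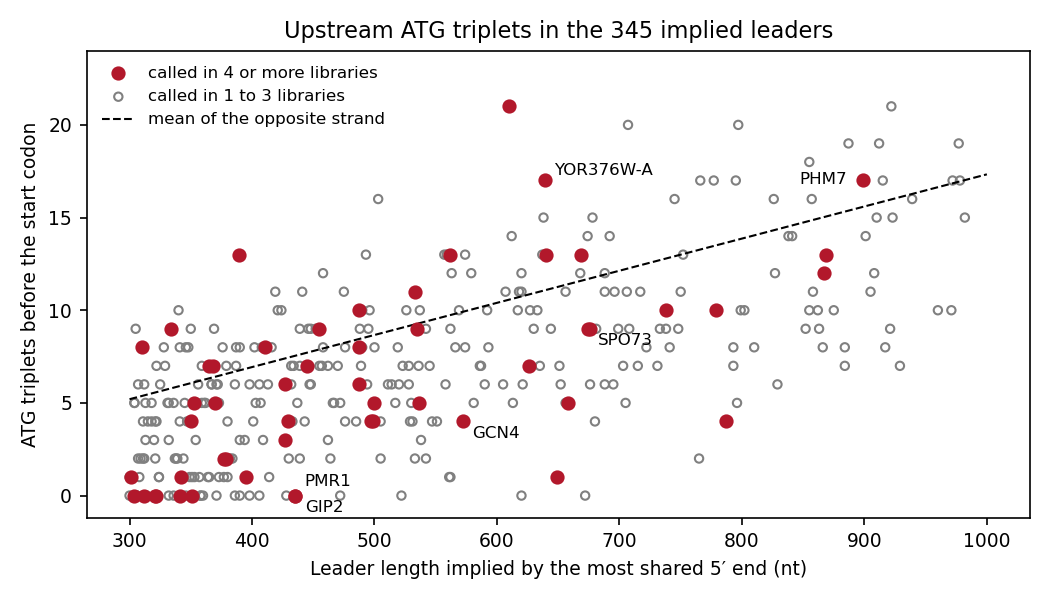
Number of ATG triplets before the start codon against the leader length in nt implied by the most shared 5′ end, for the 345 distal regions. Filled points were called in 4 or more libraries and open points in 1 to 3, and the dashed line is the mean of the opposite strand of the same leaders, 1.73 per 100 nt. Points on the axis at 0 are the 32 leaders without an ATG, and GCN4 has 4 in 572 nt.

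At the other end, YOR376W-A and PHM7 had 17 ATG triplets each, in 639 and 899 nt, and SPO73 had 9 in 674 nt. All of these opened short reading frames that closed before the start codon, the longest with 69, 70 and 55 codons.

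GCN4 encodes the activator of amino acid biosynthesis genes, and its translation is controlled by short upstream reading frames. Its distal start was called in 4 libraries, with 15.8 RPM in HPRT1R episome replicate 1, 30.2 and 33.9 RPM in HPRT1R integrated and 20.3 RPM in HPRT1 integrated replicate 2. The 5′ end lay 573 or 574 bp upstream in each. It was called in 1 episome library and in 3 integrated libraries, and no proximal peak was called in any. A second peak farther upstream, at 1210 to 1230 bp and so outside the window, was called in 5 libraries with 22.3 to 40.6 RPM. The leader from the 573 bp start holds 4 ATG triplets, each of which opens a short frame, shown here in the order in which ribosomes meet them with start and stop codons in capitals.
GCN4 frame 1, chrV:140113-140124, 361 bp upstream: ATGgcttgcTAA
GCN4 frame 2, chrV:140048-140056, 293 bp upstream: ATGtgtTAA
GCN4 frame 3, chrV:139928-139939, 176 bp upstream: ATGtacccgTAG
GCN4 frame 4, chrV:139903-139914, 151 bp upstream: ATGtttccgTAA

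CLN3, a G1 cyclin whose leader is also known to hold a short upstream frame, had its distal start at 314 or 325 bp in 3 libraries, with 23.2 RPM in HPRT1R episome replicate 1, 23.4 RPM in HPRT1R integrated replicate 1 and 17.5 RPM in HPRT1 integrated replicate 1. Another was at 766 bp in HPRT1 episome replicate 1, with 16.3 RPM. From the 325 bp start, the first frame of the leader opened 9 bases into it.
CLN3 frame 1, chrI:67824-67835, 315 bp upstream: ATGgatttcTGA
The start at 314 bp lay at the second base of this frame, so that an RNA from it would lack the ATG. CLN1, a related cyclin, had a distal start at 459 or 463 bp in 2 libraries, with 11.1 and 15.0 RPM, and another at 681 bp in 1. All of these values were near the lowest called.

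Of the 6002 protein-coding genes, 4462 had at least 1 base that met the rule, and 332 of those (7.44%) had a distal region, 53 (1.19%) in 4 or more libraries. Among transcription factors the count was 11 of 57 (19.3%), and among cyclins and cell cycle regulators 4 of 15 (26.7%). Among plasma membrane transporters it was 5 of 24 (20.8%), and among signalling proteins 4 of 26 (15.4%). On the cyclin, transporter and signalling lists, 0 members were called in 4 or more libraries. The transporter list is not complete, since SNQ2, called in 5 libraries, is not on it. GCN4 and MIG2, a repressor in glucose repression, were the members of the transcription factor list called in 4 libraries. The other members were SFL1 in 2 and MOT3, SOK2, MCM1, MSN4, TYE7, XBP1, HAP1 and ASH1 in 1 each. The list is not complete, since AFT1 and HSF1, annotated as transcription factors and called in 4 and 2 libraries, are not on it. Among genes with described upstream reading frames it was 3 of 13 (23.1%), namely GCN4, CLN3 and LEU4, among those with a described upstream transcript 1 of 7, ADH3, and among invasive growth genes with long leaders 1 of 6, NCE102. Ribosomal protein genes had 5 of 126 (3.97%), and glycolysis enzymes and proteasome subunits 0 of 13 and 0 of 26. No list member was called in all 8 libraries. Genes differ in how much sequence qualifies, the lists were not compared with each other, and these counts carry no test.

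Behind the start, the nearest gene lay on the opposite strand, so that both faced away from the space between them, in 253 regions (73.3%), compared with 60.6% of all distal zone bases. It lay on the same strand in 92 (26.7%). Of the 240 divergent regions with a protein-coding gene behind them, that gene had its own proximal start peak in at least 1 library in 173 (72.1%), and in all 8 in 60. Of all protein-coding genes, 60.7% had a proximal peak. In 107 regions the distal start lay within 300 bp of the start of the divergent gene. A tRNA gene was behind 23 regions, such as RRT13, YOP1 and YCR006C among the recurrent ones. A gene on the opposite strand lay between the distal start and the start codon in 23 regions (6.67%), compared with 8.57% of zone bases. Only 3 regions overlapped a mobile element or its long terminal repeats, and 1 lay within 10 kb of a chromosome end.

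Motifs were searched on both strands in the 150 bp before the 5′ end. TATAAA, the core of the TATA box, was present at 96 of 345 distal regions (27.8%), at 30.6% of proximal regions and at 21.2% of windows taken every 50 bases across the distal zone. TTACCCG, bound by Reb1, was present at 4.64% of distal regions, at 8.10% of proximal regions and at 2.27% of zone windows. AAAAAAA was present at 33.9%, 39.7% and 25.9% of the same sets. AGGGG, the core of the stress response element, was at 18.3% of distal regions, compared with 13.7% of proximal regions and 12.6% of zone windows. It was at 16 of the 53 distal regions called in 4 or more libraries (30.2%), and proximal regions were not counted under that limit. The 16 include TOS3, PHM7, RRT13, FHN1, YOR376W-A and GIS1. TGACTCA, bound by Gcn4, was at 1.16% of distal regions and 1.10% of zone windows, and CACGTG at 1.74% and 2.13%. Among the 53 regions in 4 or more libraries, TGACTCA was at 0, CACGTG at 3 (5.66%), TTACCCG at 4 (7.55%), TATAAA at 16 (30.2%) and AAAAAAA at 18. A match describes the letters in the window only.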

How the data were processed

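CAGE-seq peak lists of 8 yeast libraries were used, with groups taken from the sample titles. Per the study's methods and the submitters' processing notes, the authors aligned the 5′ read of each pair with Bowtie2 2.2.9 to sacCer3 plus the synthetic sequence and called peaks per library and strand with MACS2 2.1.0, without a control and with duplicates kept. Replicates, from separate colonies, were not pooled. Each deposited list gives a fold, the ratio of the authors' summit pileup to local background. It also gives the −log10 of the Poisson p and of q, as the authors' caller wrote them. Of 32 deposited lists, the 16 called with the locus as a separate sequence were used, and the 16 with it placed in chromosome XI were not.

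Pileup and background were solved from fold and p, assuming a 200 bp extension. Of 22607 peaks with a pileup under 2000, 100% were within 0.05 of a whole number. Aligned reads per strand were taken from the lowest background, and height is the pileup scaled by those of both strands, in RPM. Genes and sequence came from R64 (RefSeq). Exact permutation tests compared libraries. Heights of regions were fitted with limma 3.58.1 in R 4.3.3 on log2 RPM, with context and locus as additive terms, and the fit was tested on simulated data. Python 3.11.15 was used otherwise. Alternatives were the summit position, stricter fold (4) and −log10 q (20) limits, peaks shared by replicates, 1 minimum height, a window to 700 bp, exclusion of repeats, chromosome ends and LEU2, centred heights, regions in 6 or more libraries, each library left out and a replicate block, and 2 more were added after seeing the data.

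Members, lists and tests were chosen with earlier results of these data known. Genes were named if their region was called in all 8 libraries, passed a limma threshold, was called in 1 context or locus only, or belonged to a fixed gene list. Since 2 regions were called in all 8, further regions were named after their values were seen. Of the listed genes, FLO8 had no entry as a protein-coding gene in the annotation.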

Additional observations from a re-analysis of the deposited data

How the results depend on the processing

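The lower height of distal than proximal peaks and their higher density than in other intergenic sequence kept direction and stayed past the threshold under 17 of 18 alternatives each. The exception was the replicate block, with replicates averaged within 4 group pairs, where the values were −1.40 and 0.61 on the log2 scale and the smallest possible p is 0.125. The exclusion of repeats, chromosome ends and LEU2 removed their peaks but kept their bases in the density. It is counted among the 17 but cannot serve as a check of the density. Numbers did not pair the samples, since differences between replicates 1 and 2 correlated by −0.07 to 0.02 between groups. The share of distal peaks did not pass the threshold for context or locus under any of 18 alternatives.

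The context difference in median distance, 37.1 bp, stayed past the threshold under 2 of 18 alternatives, at 95.9 bp for peaks shared by replicates and 33.2 bp without repeats. It was 19.0 bp from summits, 62.8 bp at a fold of 4 and 48.4 bp at a −log10 q of 20. With 1 minimum height it was 18.4 bp, and in the window to 700 bp 36.8 bp. The replicate block gave 37.1 bp, where the exact permutation p cannot go below 0.0556. Leaving out each library gave 34.4 to 42.0 bp, where p cannot go below 0.0571. It was 28.1 bp for 5′ ends on a pyrimidine-purine pair and reversed to −11.0 bp without regions overlapping a proximal peak, both chosen after seeing the data. The cause was not tested.

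The 7 regions whose height differed by context became 0 with the deposited fold, 4 with the replicate block and 0 to 5 when 1 library was left out, with 5 without HPRT1R episome replicate 1 and at most 2 without any other. None held a distal peak under any alternative. The 24 native regions called in 1 context only became 14 at a fold of 4. Depth limits all of these, since starts under about 8.48 RPM on the forward or 13.7 RPM on the reverse strand were not called.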
